A study of Homo sapiens with 6 samples.

Results

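The enzymes that write, copy and erase DNA methylation were described across the Burkitt lymphoma lines Raji, Namalwa and Ramos, with and without induction of miR-26a. The 8 genes were TET1, TET2, TET3, TDG, DNMT1, DNMT3A, DNMT3B and UHRF1, chosen by gene symbol from 19775 genes with a probe set of their own. They had 16 probe sets between them. The brightest probe set of each gene, by its mean of the 6 arrays, was used, and the rest served as a check. The values were log2 intensities of Affymetrix U133 Plus arrays, so a difference of 1 on that scale is a doubling. The miR26a group held 3 arrays, 1 each from Raji, Namalwa and Ramos cells, and the empty group held 3 arrays from the same lines. Per the labels, doxycycline at 0.5 µg/ml for 72 h switched on the microRNA in the transfected lines, and the same treatment is listed for the empty samples. Each line is an established Burkitt lymphoma line, a B-cell lymphoma with a MYC translocation. The labels do not say whether the transfected cells were 1 clone or a pool. Nor do they say whether any line was grown more than once per group. The p-values therefore reflect only how these arrays vary, which may be technical. Each line had 1 array per group and no replicate. In the main fits the spread is thus how the difference between miR26a and empty varied between lines, also for comparisons of lines.

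DNA methylation in vertebrates lies mostly on cytosines followed by guanine. DNMT3A and DNMT3B place it on unmethylated DNA, and DNMT1 copies it to the new strand after replication, guided by UHRF1, which binds hemimethylated sites and ubiquitinates histone H3. The TET enzymes oxidise methylcytosine, and the glycosylase TDG cuts out the most oxidised forms so that base excision repair can restore cytosine. TET2 and DNMT3A are known as genes mutated in blood cancers. In B cells DNMT1 is needed for the fast division of germinal centre cells. Published work names the TET genes and TDG among the targets of miR-26a.

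A microRNA recognises its targets mainly through its seed, bases 2 to 8. The mature sequences that carry the seed of miR-26a are shown because the 2 groups differ by design in the induction of miR-26a. In RefSeq (GRCh38.p14), 4 of 2370 mature human microRNAs had it, and the capitals mark the seed.
hsa-miR-26a-5p: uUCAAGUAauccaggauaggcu
hsa-miR-26b-5p: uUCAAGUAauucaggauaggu
hsa-miR-1297: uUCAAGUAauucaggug
hsa-miR-4465: cUCAAGUAgucugaccagggga
The mature miR-26a was encoded at chr3:37969413-37969434 on the + strand and again at chr12:57824658-57824679 on the - strand. The target sites of the 8 genes were not analysed here.

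The arrays carried the markers of the labelled cells. All 5 analysed B-cell markers (MS4A1, CD79A, CD79B, PAX5 and CD22) and all 3 germinal centre markers (MME, BCL6 and CD38) lay above the level minimum of 4.42 on all 6 arrays, the median over all probe sets that are no controls. Of 6 T and NK cell markers 2 (CD3E and CD247) lay above it, at no more than 5.30, and of 3 analysed monocyte markers none did so on all arrays. The red cell and fibroblast lists had 1 marker each above it throughout, HBB at up to 5.83 and COL1A1 at 6.53 to 7.15. In Ramos COL1A1 was above the B-cell marker CD22. ALAS2, COL1A2 and DCN lay above the minimum on some arrays, so a level above it does not by itself show expression. Array medians ran from 4.36 to 4.44. RNA quality was less even: the ACTB control probes for the 3′ end exceeded those for the 5′ end by 3.58 log2 on the Namalwa empty array and by 1.80 to 1.98 on the other 5 arrays. EZH2, the gene of the study's title, was at 7.70 in the Raji miR26a array and 8.01 in the Raji empty array. It was at 8.87 with miR26a and 9.63 with empty in Namalwa, and at 9.16 with miR26a and 9.77 with empty in Ramos, a mean difference of -0.56 (SE 0.12; limma adjusted p = 0.106).

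With miR26a, TET3, TET1, DNMT1, DNMT3B and UHRF1 were lower in each of the 3 lines, while TET2, TDG and DNMT3A differed in direction between lines. The count of 5 of 8 genes lower in all 3 lines stands beside 19.6% of the 12012 genes tested. All 8 genes reached the level minimum by their mean and were tested. None passed over all genes (limma with the line as a block, Benjamini-Hochberg adjusted p under 0.05), and neither did any other gene, so the background was 0% of genes called. At an unadjusted p under 0.05, 4 of the 8 were lower and none higher, beside 7.33% of all genes tested lower and 12.9% in either direction. The median difference of the 8 genes was -0.19 log2, beside -0.01 for all genes tested. By line the median of the 8 was -0.16 in Raji, -0.33 in Namalwa and -0.10 in Ramos, and the empty array of the Namalwa pair was the one with the ACTB difference of 3.58. The part of that array in the result was not tested.

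**Figure D1:**
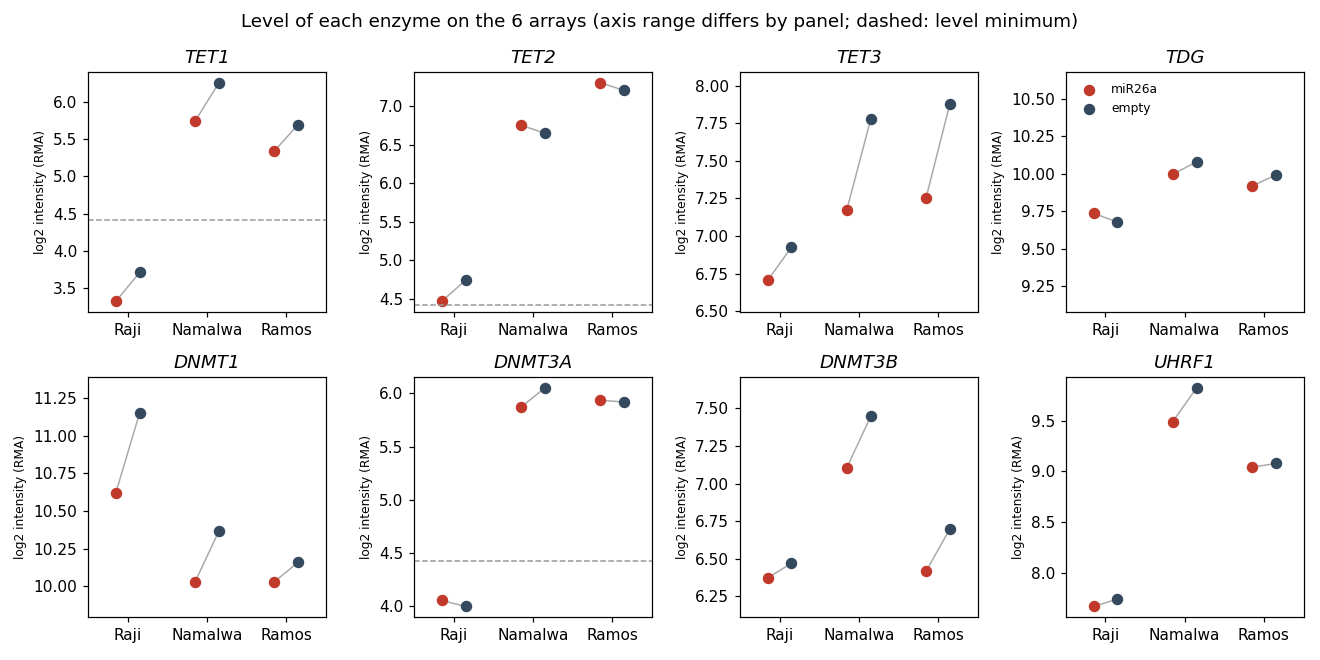
Log2 intensity of each enzyme's probe set on the 6 arrays, with miR26a left of empty in each line and a grey line joining the pair; axis ranges differ between panels. TET1, TET2, TET3, TDG, DNMT3A and UHRF1 have both Raji arrays below all 4 other arrays, and DNMT1 has both Raji arrays above them. How many of all genes tested do either was not counted.

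TET3, an eraser that oxidises methylcytosine, had the largest mean difference of the 8 genes. Its level was 6.70 with miR26a and 6.92 with empty in Raji, 7.18 with miR26a and 7.78 with empty in Namalwa, and 7.26 with miR26a and 7.88 with empty in Ramos. The difference was smallest in Raji. The mean difference was -0.48 (SE 0.12, 95% interval -0.74 to -0.22), which left 71.6% of the empty level (limma adjusted p = 0.130). It passed only without the Raji pair, at -0.61 (adjusted p = 0.0296), where 203 of 12012 genes passed. Without Namalwa it was -0.42 (adjusted p = 0.399) and without Ramos -0.41 (adjusted p = 0.357), and the mean of its probe sets gave -0.24 (adjusted p = 0.281). Both other TET3 probe sets lay near the level minimum, between 4.25 and 5.22, and gave -0.18 and -0.06.

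TET1, the TET enzyme first shown to make hydroxymethylcytosine, was lower by a similar amount in every line. Its level was 3.33 with miR26a and 3.71 with empty in Raji, 5.74 with miR26a and 6.26 with empty in Namalwa, and 5.34 with miR26a and 5.70 with empty in Ramos. The mean difference was -0.42 (SE 0.10, 95% interval -0.64 to -0.19), with 74.9% of the empty level left (limma adjusted p = 0.131). Both Raji arrays lay below the level minimum of 4.42, so the Raji difference of -0.39 is between signals near background. The other TET1 probe set lay below that minimum on all 6 arrays and gave -0.25.

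TET2 and TDG showed no common direction. TET2, the TET enzyme most abundant in blood cells, was at 4.46 with miR26a and 4.74 with empty in Raji, 6.75 with miR26a and 6.65 with empty in Namalwa, and 7.31 with miR26a and 7.21 with empty in Ramos. The difference was thus -0.27 in Raji against 0.10 in each of Namalwa and Ramos, with a mean of -0.02 (95% interval -0.28 to 0.23). Its other probe sets gave -0.24 and 0.30. TDG, the glycosylase downstream of the TET enzymes, was at 9.74 with miR26a and 9.68 with empty in Raji, 10.00 with miR26a and 10.08 with empty in Namalwa, and 9.92 with miR26a and 9.99 with empty in Ramos. By this probe set no pair differed by more than 0.08, and the mean difference was -0.03 (95% interval -0.26 to 0.19). The other TDG probe set, also above the minimum on all arrays, was higher with miR26a in Ramos, at 7.97 against 7.60 with empty, and gave a mean of 0.10.

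**Figure D2:**
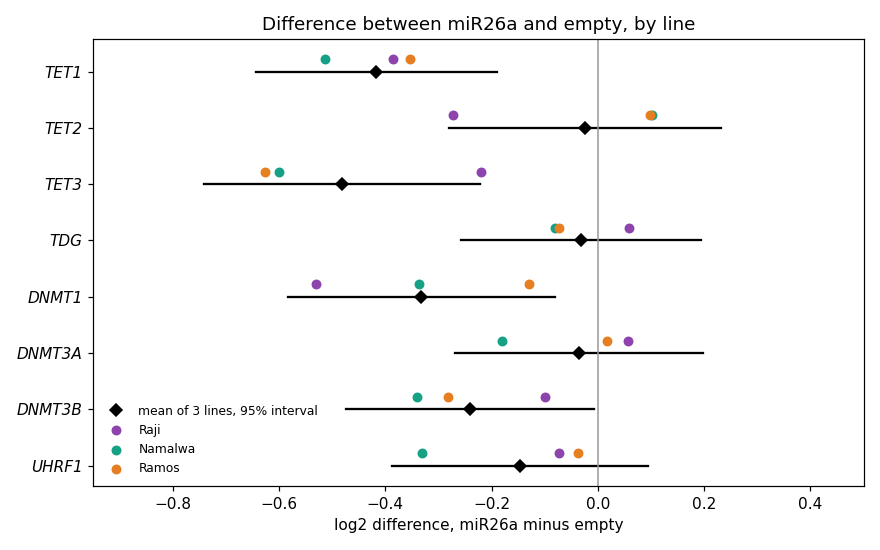
Log2 difference between miR26a and empty for each enzyme: coloured points are the 3 lines, black diamonds the mean of the lines with its 95% interval from limma. TET1, TET3, DNMT1, DNMT3B and UHRF1 have all 3 points left of 0, and the intervals of UHRF1, TET2, TDG and DNMT3A include 0.

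DNMT1, the maintenance methyltransferase, was lower with miR26a by most in Raji. Its level was 10.62 with miR26a and 11.15 with empty in Raji, 10.03 with miR26a and 10.37 with empty in Namalwa, and 10.03 with miR26a and 10.16 with empty in Ramos. The mean difference was -0.33 (SE 0.11, 95% interval -0.58 to -0.08), with 79.4% of the empty level left (limma adjusted p = 0.259). Its guide UHRF1 was at 7.67 with miR26a and 7.74 with empty in Raji, 9.49 with miR26a and 9.82 with empty in Namalwa, and 9.04 with miR26a and 9.08 with empty in Ramos. Namalwa alone thus showed a UHRF1 difference of over 0.1 log2, and the mean of -0.15 had a 95% interval of -0.39 to 0.09 (limma adjusted p = 0.616). The empty array of that Namalwa pair was the array with the ACTB difference of 3.58.

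The de novo methyltransferases differed from each other. DNMT3B was at 6.37 with miR26a and 6.47 with empty in Raji, 7.11 with miR26a and 7.45 with empty in Namalwa, and 6.42 with miR26a and 6.70 with empty in Ramos. Its mean difference was -0.24 (SE 0.10, 95% interval -0.47 to -0.01; limma adjusted p = 0.368). DNMT3A was at 4.05 with miR26a and 3.99 with empty in Raji, 5.87 with miR26a and 6.05 with empty in Namalwa, and 5.94 with miR26a and 5.92 with empty in Ramos. That gave a mean of -0.04 (95% interval -0.27 to 0.20), and only the Namalwa pair differed by over 0.1 log2. Both Raji arrays lay below the level minimum, and the other DNMT3A probe sets gave 0.27 and -0.04.

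Genes of DNA replication were lower with miR26a beside DNMT1 and UHRF1. DNMT1 and UHRF1 are known to be made mainly in cells that replicate their DNA. Of 20 S phase genes, 19 were lower in all 3 lines, beside 19.6% of all genes tested. The list's median was -0.43, beside -0.01 for all genes tested, although none of the list passed over all genes. CDC6, which loads the replicative helicase, was at -0.73 (SE 0.11), the chromatin assembly subunit CHAF1A at -0.70 (SE 0.12) and cyclin E2 (CCNE2) at -0.65 (SE 0.10). The median of -0.43 is below the -0.33 of DNMT1 and the -0.15 of UHRF1. The part of these genes in the enzymes' differences was not tested. In bulk RNA, fewer cells that express a gene and less RNA per cell cannot be told apart.

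Raji stood apart from both other lines in most of these enzymes. In Raji, TET1, TET2, DNMT3A and UHRF1 were lower than in Namalwa and in Ramos, with differences of -1.35 to -2.66 log2, TET3 was lower by less, and DNMT1 was higher. Between Raji and Namalwa 7 of 8 genes passed (limma, adjusted p under 0.05), 6 lower and 1 higher in Raji, beside 46.1% of all genes tested called, 23.4% lower and 22.8% higher. Between Raji and Ramos 6 of 8 passed, 5 lower and 1 higher, beside 50.5% of all genes called, 24.4% lower and 26.1% higher. These comparisons share the Raji arrays. TET1 and DNMT3A reached the level minimum only through Namalwa and Ramos, so their passing is no support for a count: of the 6 genes above it on all arrays, 5 passed against Namalwa (4 lower, 1 higher) and 4 against Ramos (3 lower, 1 higher). Among these 6 is TET2, whose Raji arrays lay only just above the minimum of 4.42, at 4.46 with miR26a and 4.74 with empty. The median difference of the 8 genes was -1.40 for Raji minus Namalwa, beside 0.05 for all genes tested. For Raji minus Ramos it was -1.05, beside 0.06.

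**Figure D3:**
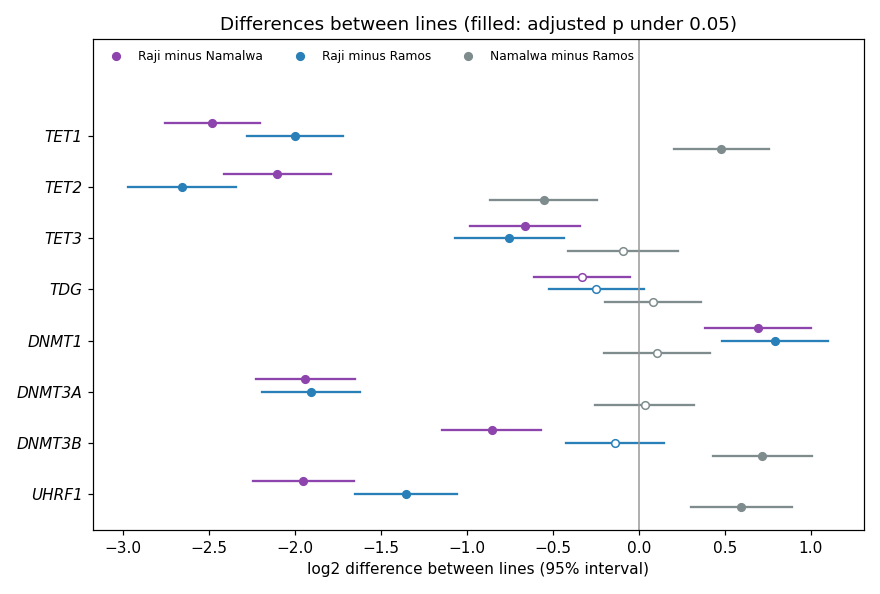
Log2 differences between lines for each enzyme with 95% intervals from limma; filled points passed at adjusted p under 0.05. Raji minus Namalwa and Raji minus Ramos lie between -2.66 and -1.91 for TET1, TET2 and DNMT3A. They lie at -1.95 and -1.35 for UHRF1 and above 0 for DNMT1, while TDG has open points in all 3 comparisons.

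Among the erasers, TET1 and TET2 differed most between Raji and the other lines, and were lower in Raji. TET1 averaged 3.52 in Raji and 5.52 in Ramos, and Namalwa had its highest mean. Its differences were -2.48 (SE 0.12; limma adjusted p = 2.51e-07) for Raji minus Namalwa and -2.00 (SE 0.12; limma adjusted p = 1.03e-06) for Raji minus Ramos. The Raji arrays did not overlap those of the other lines, a trait not counted over all genes tested. They lay below the level minimum, so the ratios are no exact folds. The other TET1 probe set, below the minimum on all 6 arrays, gave -1.17 and -0.79 for these comparisons.

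TET2 averaged 4.60 in Raji, 6.70 in Namalwa and 7.26 in Ramos. Its differences were -2.10 (SE 0.14; limma adjusted p = 1.98e-06) for Raji minus Namalwa and -2.66 (SE 0.14; limma adjusted p = 3.36e-07) for Raji minus Ramos. Its most variable probe set differed more. It was at 2.39 with miR26a and 2.74 with empty in Raji, 7.10 with miR26a and 7.28 with empty in Namalwa, and 6.95 with miR26a and 7.14 with empty in Ramos. By this probe set TET2 was far below the level minimum in Raji and well above it in both other lines, a fitted difference of -4.63 from Namalwa and -4.48 from Ramos that is no exact fold, since the Raji signal is not above background. The dimmest one was also below the minimum in Raji, at 3.58 with miR26a and 3.31 with empty. It gave -1.45 from Namalwa and -1.48 from Ramos. All 3 TET2 probe sets passed for both comparisons (limma over 27311 probe sets, adjusted p = 2.88e-08 to 8.08e-04). The most variable one reached the level minimum only through Namalwa and Ramos, and the dimmest was fitted whatever its level. Their passing is therefore no further support. What these probe sets cover of the TET2 transcripts was not analysed here.

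TET3 and TDG differed less between lines. TET3 averaged 6.81 in Raji, 7.48 in Namalwa and 7.57 in Ramos, differences of -0.66 (SE 0.14; limma adjusted p = 0.00387) for Raji minus Namalwa and -0.75 (SE 0.14; limma adjusted p = 0.00165) for Raji minus Ramos. The first of these was lost with no group term (adjusted p = 0.0566). With the mean of all its probe sets neither passed (limma adjusted p = 0.448 and 0.0505), and the dimmest probe set was higher in Raji, by 0.29 against Namalwa and 0.13 against Ramos. TDG averaged 9.71 in Raji, 10.04 in Namalwa and 9.96 in Ramos. It did not pass in either comparison (limma adjusted p = 0.0520 for -0.33 and 0.122 for -0.25). The difference from Namalwa lay at the threshold: it passed with arrays centred on their medians (adjusted p = 0.0439), quantile normalization again (0.0446), the higher minimum (0.0317), an intensity trend and robust prior (0.0223) and the mean of its probe sets (0.00376). By its other, dimmer probe set it was lower in Raji, at -0.70 against Namalwa and -0.66 against Ramos, and passed (limma adjusted p = 0.00508 and 0.00624).

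**Figure D4:**
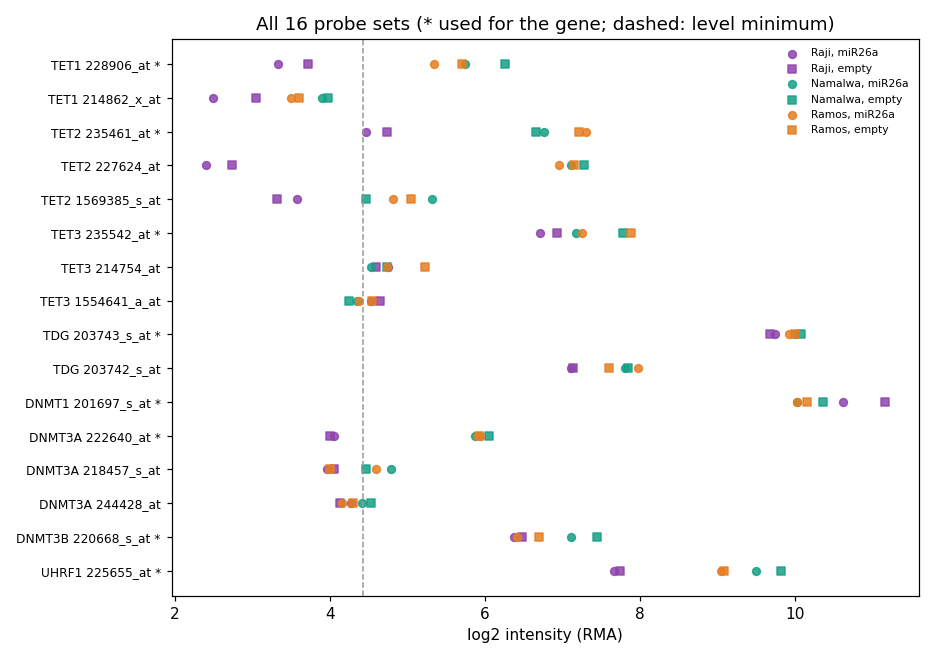
Log2 intensity of all 16 probe sets of the enzymes on the 6 arrays, coloured by line, circles for miR26a and squares for empty; the star marks the probe set used. All 3 TET2 probe sets have both Raji arrays lowest, and the unstarred probe sets of DNMT3A lie near the dashed level minimum in all lines. How many of all probe sets have both Raji arrays lowest was not counted.

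Of the writers, DNMT1 was the only 1 of the 8 genes higher in Raji. DNMT1 averaged 10.89 in Raji, 10.20 in Namalwa and 10.09 in Ramos. It exceeded Namalwa by 0.69 (SE 0.14; limma adjusted p = 0.00256) and Ramos by 0.79 (SE 0.14; limma adjusted p = 9.98e-04). Its guide went the other way: UHRF1 averaged 7.70 in Raji, 9.65 in Namalwa and 9.06 in Ramos. The differences were -1.95 (SE 0.13; limma adjusted p = 2.19e-06) for Raji minus Namalwa and -1.35 (SE 0.13; limma adjusted p = 2.37e-05) for Raji minus Ramos, 3.87-fold and 2.56-fold lower. For both genes the Raji arrays did not overlap those of the other lines. The share of all genes tested with such a gap was not counted. In the 2 Raji comparisons 46.1% and 50.5% of all genes tested were called. DNMT1 and UHRF1 had 1 probe set each, so neither has a check by another.

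DNMT3A averaged 4.02 in Raji, 5.96 in Namalwa and 5.93 in Ramos, and neither Raji array reached the level minimum. Its differences were -1.94 (SE 0.13; limma adjusted p = 1.84e-06) for Raji minus Namalwa and -1.91 (SE 0.13; limma adjusted p = 1.82e-06) for Raji minus Ramos. Of its other probe sets, the brighter one passed against Namalwa (-0.62, limma adjusted p = 0.0186) but not against Ramos (-0.29, adjusted p = 0.202), and the dimmer one passed in neither (-0.27 and -0.03). Both had means below the minimum. DNMT3B averaged 6.42 in Raji, 7.28 in Namalwa and 6.56 in Ramos. Raji and Ramos did not differ in it beyond their spread (-0.14, 95% interval -0.42 to 0.15), and Raji minus Namalwa gave -0.86 (SE 0.13; limma adjusted p = 4.37e-04).

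Namalwa and Ramos were closer to each other. Here 4 of 8 genes passed, 3 higher and 1 lower in Namalwa, beside 14.7% of all genes tested called, 8.09% higher and 6.57% lower. DNMT3B was higher in Namalwa by 0.72 (SE 0.13; limma adjusted p = 0.00538), UHRF1 by 0.60 (SE 0.13; limma adjusted p = 0.0152) and TET1 by 0.48 (SE 0.12; limma adjusted p = 0.0298). TET2 was lower in Namalwa, at -0.55 (SE 0.14; limma adjusted p = 0.0270), but its most variable probe set gave 0.15. DNMT1, TET3, TDG and DNMT3A lay within 0.10 of each other in these lines. Leaving 1 array in a line lost calls: 0 of the 8 genes passed without the Namalwa empty array, which had the ACTB difference of 3.58, 1 without the Ramos empty array and 2 without the miR26a array of either line. The 4 genes that passed with all arrays kept the direction of their difference. Without the Ramos empty array TET3, DNMT1 and DNMT3A turned, as did DNMT3A without the Namalwa empty array. Without the Namalwa empty array DNMT3B was at 0.64 (adjusted p = 0.0525), UHRF1 at 0.46, TET1 at 0.41 and TET2 at -0.46, and 936 genes passed in all, against 1761 with all arrays.

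In Raji only the used probe set of TET2 lay above the level minimum. Raji differed from both other lines by all 3 probe sets of TET2 and by the 1 probe set of UHRF1. The 250 bases before each RefSeq transcript start of these 2 genes are shown as examples of an eraser and a partner of maintenance, chosen after their values and motif matches were seen (GRCh38.p14, 5′ to 3′ on the gene's strand). TET1 and DNMT1 also differed by every probe set they have, and their windows, which held no searched motif, are not shown. Motifs were searched on both strands in all 19 such windows of the 8 genes: CACGTG, the E-box bound by MYC and related factors, and TTTCCCGC, TTTGGCGC and TTTCGCGC, forms of the E2F motif. No motif of the set contains another. Capitals mark matches.
TET2 at chr4:105145625-105145874 (+ strand): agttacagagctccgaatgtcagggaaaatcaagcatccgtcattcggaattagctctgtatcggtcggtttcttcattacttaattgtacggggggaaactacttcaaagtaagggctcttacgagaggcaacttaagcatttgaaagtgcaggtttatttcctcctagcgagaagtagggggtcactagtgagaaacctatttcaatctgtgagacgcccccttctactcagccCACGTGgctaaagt
TET2 at chr4:105146626-105146875 (+ strand): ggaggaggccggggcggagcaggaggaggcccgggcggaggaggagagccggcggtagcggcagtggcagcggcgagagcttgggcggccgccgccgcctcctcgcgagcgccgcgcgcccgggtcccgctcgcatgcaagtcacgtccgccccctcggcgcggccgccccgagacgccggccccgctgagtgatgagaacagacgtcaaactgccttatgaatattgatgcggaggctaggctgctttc
UHRF1 at chr19:4909251-4909500 (+ strand): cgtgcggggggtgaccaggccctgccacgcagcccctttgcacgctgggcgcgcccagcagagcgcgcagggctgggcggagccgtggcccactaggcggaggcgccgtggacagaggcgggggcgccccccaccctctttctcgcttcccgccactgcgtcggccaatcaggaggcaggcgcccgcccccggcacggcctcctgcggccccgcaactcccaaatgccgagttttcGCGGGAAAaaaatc
UHRF1 at chr19:4909894-4910143 (+ strand): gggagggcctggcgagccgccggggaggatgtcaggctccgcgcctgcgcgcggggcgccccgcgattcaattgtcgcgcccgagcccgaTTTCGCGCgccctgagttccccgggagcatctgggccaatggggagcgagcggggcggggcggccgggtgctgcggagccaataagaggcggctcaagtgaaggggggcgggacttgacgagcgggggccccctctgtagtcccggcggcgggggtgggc
UHRF1 at chr19:4910117-4910366 (+ strand): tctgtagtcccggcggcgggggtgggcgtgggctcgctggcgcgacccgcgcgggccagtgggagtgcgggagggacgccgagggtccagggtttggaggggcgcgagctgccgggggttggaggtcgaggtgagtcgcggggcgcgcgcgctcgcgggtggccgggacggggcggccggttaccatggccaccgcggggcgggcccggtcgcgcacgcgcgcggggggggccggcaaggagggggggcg
The upstream TET2 window held an E-box that began 14 bases before the start, and 10 CpG dinucleotides. The downstream TET2 window held no searched motif and 34 CpG dinucleotides, beside a median of 11 over all windows. Of the UHRF1 windows, the one shown first held GCGGGAAA, the reverse complement of TTTCCCGC, from 14 bases before the start, the next held TTTCGCGC from 160 bases before it, and the last held no searched motif and 41 CpG dinucleotides. UHRF1 was the only 1 of the 8 genes with an E2F match, beside 2.32% of 35116 windows of all genes. E-boxes were found for 4 of the 8 (TET2, TET3, TDG and DNMT3A), beside 6.34% of all windows. Both percentages are of windows, and the share of all genes with a match was not counted. Genes with several windows had more chances, and windows of DNMT3A overlap. A match is a run of letters and no measured binding site.

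The partners of the enzymes were described by 5 lists with no set test. With miR26a none of their genes passed over all genes. Of all genes tested, 19.6% were lower in all 3 lines and the median was -0.01, to set beside the counts and medians below. Partners of maintenance methylation had a median of -0.13 over 12 tested genes, 4 of them lower in all 3 lines. PCNA, the replication clamp that DNMT1 binds, was at -0.44 (SE 0.11), CDCA7, which recruits the remodeller HELLS, at -0.38 (SE 0.11), and CDCA7L at -0.28 (SE 0.10). Of 10 tested genes of the methyl donor cycle 8 were lower in all 3 lines (median -0.18), among them the thymidylate synthase TYMS at -0.32, the regulatory subunit MAT2B of the enzyme that makes S-adenosylmethionine at -0.31 and MTHFD1 of folate metabolism at -0.25. The 7 methyl-CpG readers had a median of 0.04, led by ZBTB4 at 0.11, MBD2 at -0.10 and ZBTB33 at 0.08. The 14 tested genes of base excision had a median of -0.03, with the uracil glycosylase UNG at -0.26, SMUG1 at 0.24 and OGG1 at 0.18. The 10 TET cofactors and partners had a median of -0.08, with IDH1, which makes the α-ketoglutarate that TET enzymes use, at -0.26, PROSER1 at -0.20 and DDB1 at 0.17.

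**Figure D5:**
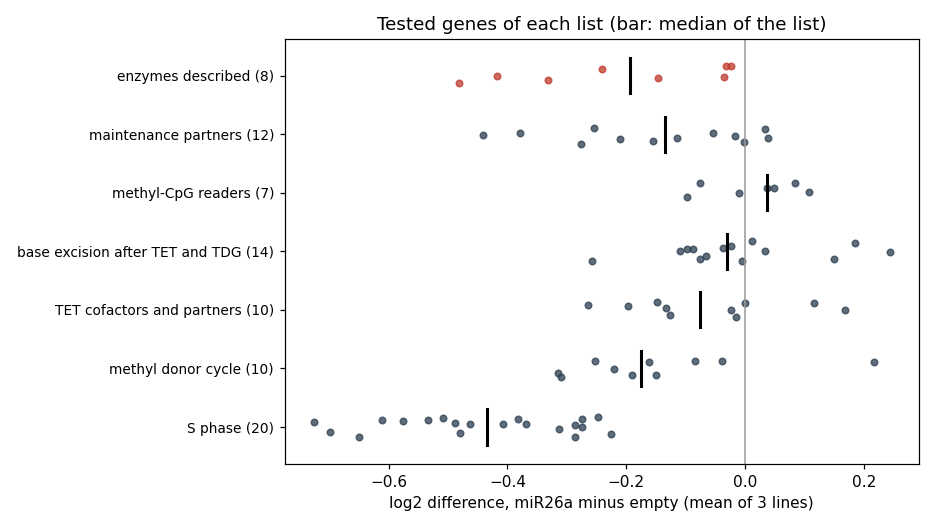
Log2 difference between miR26a and empty for the tested genes of each list, with vertical bars at the medians. The S phase genes all lie left of 0 with a median of -0.43, and the enzymes described have a median of -0.19.

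Between lines the partners moved in both directions. In the Raji comparisons 22.8% to 26.1% of all genes tested were called in each direction, the share to set beside each list count below. Some list counts lay near that share and others above or below it. The lists are short and had no set test, so the counts are given as a description. In Raji against Namalwa 5 of 12 maintenance partners fell and 1 rose, and against Ramos 6 fell and 1 rose. UHRF2, the paralog of UHRF1, was lower in Raji, at -2.17 against Namalwa and -1.76 against Ramos (limma adjusted p = 9.30e-07 and 3.61e-06). CDCA7 was at -0.71 and -0.66 in the same order, HELLS, a remodeller needed for normal DNA methylation, at -0.70 and -0.86, and USP7, a deubiquitinase that binds DNMT1 and UHRF1, at -0.59 and -0.56. TRDMT1, a tRNA methyltransferase of the DNMT family, was at -0.62 against Ramos, and CDCA7L was higher in Raji, at 0.62 and 0.49. Of 7 readers 3 fell and 2 rose against each line. MBD1 was at -0.97 against Namalwa and -0.91 against Ramos, MBD4 at -0.85 and -1.06, and ZBTB33 at -0.51 and -0.65, while ZBTB38 was at 0.86 and 0.98 and MBD3 at 0.53 and 0.51.

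Among base excision genes 3 of 14 fell in Raji against each line, and 4 rose against Namalwa and 5 against Ramos. GADD45A, a stress protein linked to active demethylation, was at -1.81 for Raji minus Namalwa and -1.83 for Raji minus Ramos, UNG was at -1.50 and -1.78, and MBD4 fell too. The DNA glycosylases OGG1 and NEIL3 were higher in Raji, OGG1 at 0.52 and 0.68 and NEIL3 at 0.58 and 0.54. GADD45B was at 0.59 and 0.57, NTHL1 at 0.50 against Namalwa, and SMUG1 at 0.47 against Ramos.

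Of 10 TET cofactors and partners 3 fell and 2 rose in Raji against Namalwa, and 4 fell and 2 rose against Ramos. IDH1 was higher in Raji, at 1.58 against Namalwa and 1.38 against Ramos (limma adjusted p = 1.21e-05 and 2.68e-05). Its mitochondrial relative IDH2 was at -0.99 against Namalwa but only -0.46 against Ramos (limma adjusted p = 1.64e-04 and 0.0136). PROSER1 was at -0.81 and -1.13, the sugar transferase OGT, which binds TET enzymes, at -0.73 and -0.77, and HCFC1 at -0.37 against Ramos. DDB1 was at 0.83 and 0.69.

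In the methyl donor cycle 4 of 10 rose and 1 fell in Raji against Namalwa, and 3 rose and 1 fell against Ramos. AHCY, which removes the inhibitor left by methyl transfer, was at 1.62 and 1.17, and its relatives AHCYL1 at 0.48 and 0.34 and AHCYL2 at -0.64 and -0.61. MAT2B was at 0.60 and MTRR at 0.33 against Namalwa, and MTHFD1 at 0.58 against Ramos. The S phase genes were split in Raji, with 5 higher and 6 lower of 20 in each comparison. Against Namalwa MCM4, CDC6, GINS1 and MCM3 led those that were higher, at 0.90, 0.69, 0.48 and 0.44, and RFC3, RRM1, RFC4 and CCNE2 those that were lower, at -0.64, -0.62, -0.61 and -0.61. Against Ramos CDC6, POLE2, MCM4 and GINS1 led upwards, at 0.79, 0.72, 0.65 and 0.54, and RFC3, RFC4, CDT1 and RRM1 downwards, at -1.03, -0.44, -0.37 and -0.36.

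Between Namalwa and Ramos, where 14.7% of all genes were called, 0 to 2 genes of each of the 5 partner lists passed. TRDMT1 was at -0.78, IDH2 at 0.54, MTRR, a reductase that keeps methionine synthase active, at -0.59, and MTHFD1 at 0.46. Of the 20 S phase genes POLE2 was at 1.28, CCNE2 at 0.54 and MCM3 at -0.64.

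The genes with the most similar profile over the 6 arrays were found for the 7 enzymes that spanned at least 1 log2, as the smallest root mean square difference after each gene was centred on its mean. These values describe 6 arrays that share 3 lines. Nearest to TET1 were ZFHX3 (0.15 log2) and HEBP1 (0.18), and nearest to TET2 were IGLL3P (0.13) and RNF135 (0.14). DNMT3A lay nearest to PHIP (0.07) and SUZ12P1 (0.08), and UHRF1 to IRS1 (0.07) and SLC35E3 (0.09). For DNMT1 they were ANAPC15 (0.07) and RNF214 (0.08), for DNMT3B CHSY1 (0.05) and B3GNT2 (0.11), and for TET3 ZDHHC20 (0.06) and CENPK (0.07). Within the 8 genes the closest pair was DNMT3A and UHRF1, at 0.27.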

How the data were processed

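Total RNA of 6 samples was labelled with biotin and hybridised to 1 array each, per the labels. The log2 intensities deposited by the authors came from RMA, as the labels and the submitters' processing notes say. Those notes name GCOS too, both with no version. RMA brings all arrays to 1 distribution before the probes of a probe set are summarised. A shift of all RNAs would therefore not be seen, and no detection calls were used. Of the probe sets, 41091 carried 1 gene symbol and 1801 several, and symbols were updated by Entrez ID for 41037 (RefSeq table of GRCh38.p14, names only). The brightest probe set stood for a gene, and 12012 of 19775 genes had a mean at or above 4.42. limma (3.58.1, R 4.3.3) was fitted over them with line and group in 1 model, and tested on simulated data. The same cell line supplied both arrays of a pair, and their deviations from the group means correlated at 0.950 in Raji, 0.861 in Namalwa and 0.917 in Ramos. Genes passed at a Benjamini-Hochberg adjusted p under 0.05. The number of arrays limits the precision. Other probe sets of the 8 genes were fitted among 27311 probe sets.

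The 8 genes and the lists were chosen with earlier results of these data known. Named besides the 8 genes and EZH2 are list genes that passed (up to 4 per direction by size in each comparison), or up to 3 with the largest difference where none passed, and the 2 nearest profiles. A planned comparison of protein sequences was not run. The alternatives were other scalings, level minimums, probe set rules, variance priors, thresholds and blocks, and leaving out lines or arrays.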

Additional observations from a re-analysis of the deposited data

Results flagged for a closer look

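For 3 of the 8 genes the difference between miR26a and empty had opposite signs in different lines. TET2 was at -0.27 in Raji and 0.10 in Namalwa, a gap of -0.38. DNMT3A was at -0.18 in Namalwa and 0.06 in Raji, a gap of -0.24, and TDG at -0.08 in Namalwa and 0.06 in Raji, a gap of -0.14. Each line had 1 pair of arrays, so these gaps were not tested.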

How the results depend on the processing

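For miR26a minus empty, 0 of the 8 genes passed under 12 of 13 alternatives, among them the fit with no replicate block (0). Leaving out each line gave 0 to 1, the 1 being TET3 without Raji. Of all genes, 0 passed, against 50 with the higher minimum, 102 with an intensity trend and robust prior, 79 at an adjusted p under 0.1, 203 without Raji and 23 without Ramos. The count of 5 genes lower in all 3 lines became 5 to 6. Directions turned only for TET2, TDG and DNMT3A: TET2 gave 0.010 with the mean of all probe sets, -0.087 to 0.10 when each line was left out (0.10 without Raji) and 0.30 with its dimmest probe set. TDG gave 0.035 with the mean of all probe sets and 0.10 with its other probe set, also the most variable. DNMT3A gave 0.065 with the mean of all probe sets, -0.082 to 0.037 when each line was left out (0.037 without Namalwa) and 0.27 with the brighter of its other probe sets. The cause was not tested. Between Raji and Namalwa 5 to 8 genes passed, where the higher minimum tested only 5. Between Raji and Ramos 5 to 7 passed, except 3 with the minimum raised to the 75th percentile (6.19), which left 5 genes to test. TET3 turned to 0.29 against Namalwa and 0.13 against Ramos with its dimmest probe set, and to 0.032 against Namalwa with the middle one. Between Namalwa and Ramos, 2 genes passed with that minimum, with the mean of all probe sets and with the most variable probe set, and 0 to 4 when each array was left out, where the lone array of a line is assumed to vary like the rest. There TET2 turned to 0.15 with its most variable probe set. When each array was left out, TET3 ran from -0.20 to 0.016, DNMT1 from -0.048 to 0.26 and DNMT3A from -0.075 to 0.14, with the sign turned without the Ramos empty array and, for DNMT3A, also without the Namalwa empty array. The number of arrays, and for TET1, TET2 and DNMT3A in Raji a signal near background, limit these values.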
